A study of Arabidopsis thaliana with 6 samples.

Results

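SWEET proteins are sugar carriers of plant membranes that let sugars pass down a concentration gradient in either direction, without coupling to protons. Members of the sucrose-transporting clade, to which SAG29 (also named SWEET15) and SWEET10 to SWEET14 belong, release sucrose from cells, for example beside the phloem of leaves. SWEET2, SWEET16 and SWEET17 lie in the vacuole membrane, and SWEET4 carries hexoses at the plasma membrane. The 10 genes examined here, taken by name, were SAG29 and SWEET10 to SWEET14 together with the vacuolar and root members SWEET2, SWEET4, SWEET16 and SWEET17. A probe set annotated to a single gene was present for 9 of the 10, out of 13286 genes with such a probe set, and SWEET12 was not analysed here.

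Transcripts were measured on 6 Affymetrix ATH1 arrays, each hybridised with RNA of whole Arabidopsis thaliana seedlings. The seedlings were actin2-5 on 3 arrays, a mutant that the labels also name wavy, and the Columbia wild type on the other 3. Both genotypes were harvested after 8 days on Murashige and Skoog medium of reduced strength, and the design text calls the 3 arrays of each genotype biological replicates. The kind of mutation, the number of independent mutant lines and the ecotype of the mutant are not given in the labels. Whole seedlings mix root, shoot and vascular cells, so fewer cells of a type and less RNA per cell cannot be told apart.

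All values are the deposited log2 expression values, and a change is the mean of actin2-5 less that of wild type on this scale. A change was called when limma, fitted to all 22746 probe sets, gave a Benjamini-Hochberg adjusted p under 0.05. Array medians lay between 6.43 and 6.465. Control signal for 25S ribosomal RNA differed between the mutant arrays, at 10.63, 7.75 and 9.82 for replicates 1, 2 and 3, while wild type stayed within 8.13 to 8.21. Of the tissue markers, 2 genes listed for root had a mean log2 value of 11.65 to 11.73 on the actin2-5 arrays and 11.74 to 11.88 on the wild-type arrays. The 2 genes went opposite ways, NAI2 by -0.27 and PYK10 by 0.09, so the lower mean came from NAI2. The mean of 4 genes of green tissue was 13.11 to 13.18 on the actin2-5 arrays and 13.15 to 13.29 on the wild-type arrays. The part of these differences in the results was not tested, and phloem markers were not analysed here.

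Of the 9 SWEET genes, SAG29 fell in actin2-5 and the other 8 were not called. Over all probe sets 3.3% were called, 1.11% lower and 2.18% higher in actin2-5. An unadjusted p under 0.05 was found for 3 of the 9 genes and for 15.3% of all probe sets. The groups did not overlap in SAG29, SWEET2 and SWEET13, all lower in actin2-5, which is 33.3% of the 9 genes against 10.8% of all probe sets lower without overlap. In 8 of the 9 genes the difference was negative, as it was in 59.7% of all genes, and in SWEET16 the means were equal. The median change was -0.18 over the 9 genes and -0.03 over all genes.

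**Figure D1:**
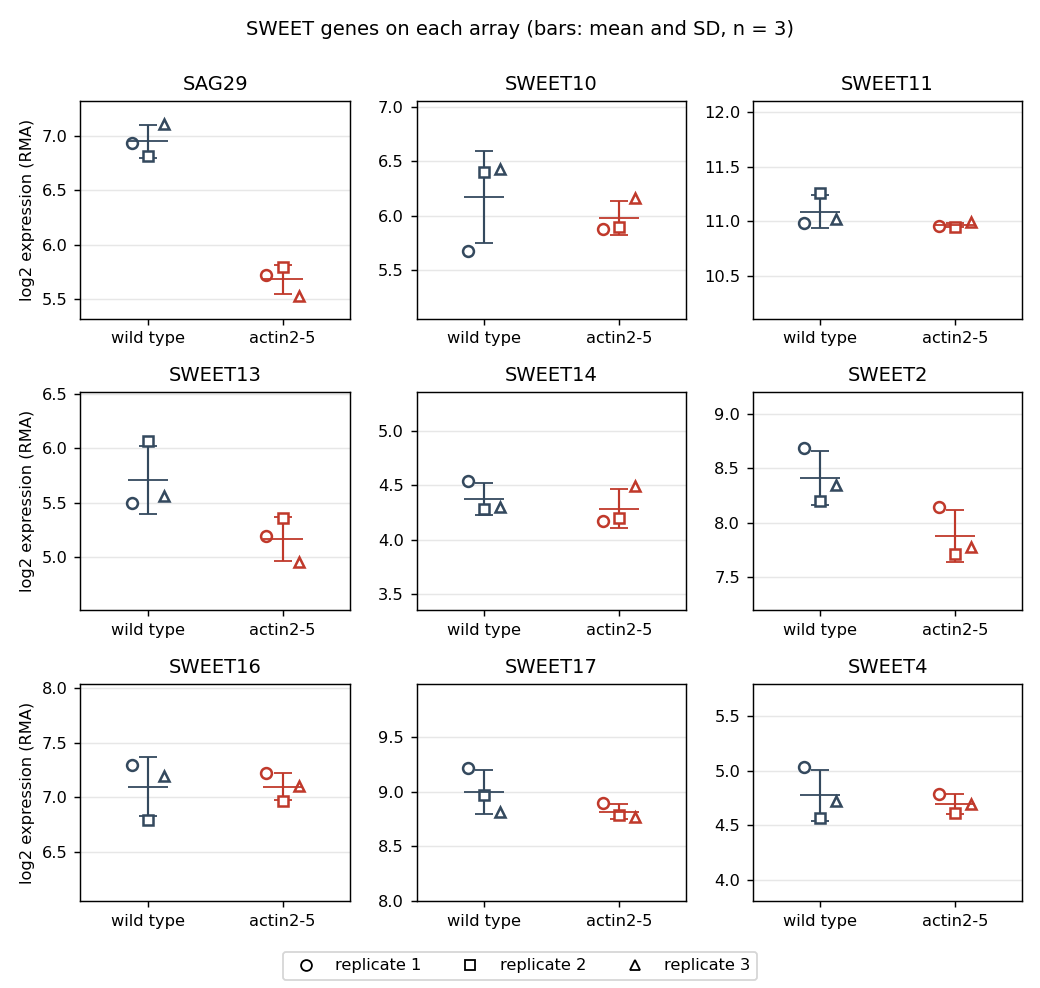
Log2 expression (vertical axes, each spanning 2 log2 units) of the 9 SWEET genes on the 3 wild-type and 3 actin2-5 arrays. Each symbol is 1 array, shaped by replicate number, and bars give the mean and SD (n = 3). SAG29 is separated by 1.02 between the lowest wild-type and the highest actin2-5 array, SWEET13 by 0.14 and SWEET2 by 0.05, and the other genes overlap.

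SAG29, named for its induction in senescing leaves, encodes a sucrose carrier that also acts in seed filling together with SWEET11 and SWEET12. On the wild-type arrays SAG29 (AT5G13170, on chromosome 5) read 6.93, 6.81 and 7.11. On the actin2-5 arrays it read 5.72, 5.79 and 5.53. Every actin2-5 array thus lay below every wild-type array, and the gap of 1.02 between the groups was wider than the SD of 0.15 in wild type or 0.13 in actin2-5. The change was -1.27 ± 0.11 (SE, n = 3 per group; limma adjusted p = 0.000168), a 2.41-fold lower level with a 95% interval of 2.05-fold to 2.84-fold. Ordered by the size of the decrease, SAG29 stood at rank 5 of the 22746 probe sets. The call held with each array left out, with changes from -1.34 to -1.19. The change was -1.22 ± 0.14 with the 25S signal as a covariate (limma adjusted p = 0.00332). It was -1.16 without the actin2-5 arrays of high 25S signal, 1 and 3, which leaves 1 actin2-5 array and no spread within that genotype.

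Among the other sucrose carriers, SWEET13 is a phloem-linked member that is also known to transport gibberellin. SWEET13 (AT5G50800) read 5.50, 6.07 and 5.56 in wild type and 5.19, 5.36 and 4.96 in actin2-5. The groups did not overlap, and replicate 2 was highest in both genotypes, well above the other arrays in wild type. The change was -0.54 ± 0.15, with a 95% interval of -0.88 to -0.20, and missed the threshold (limma adjusted p = 0.102).

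SWEET10, known to be induced at the floral transition, lies next to SWEET13 in RefSeq's gene order, with no annotated gene between them. SWEET10 (AT5G50790) read 5.68, 6.40 and 6.43 in wild type and 5.88, 5.90 and 6.16 in actin2-5. The lowest and the highest of the 6 values were both wild type, so the mutant lay inside the wild-type range. The change of -0.19 ± 0.18 (95% interval -0.59 to 0.21; limma adjusted p = 0.691) was smaller than the wild-type SD of 0.42. Without wild-type replicate 1 it was -0.435, still not called (limma adjusted p = 0.0622).

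SWEET11, which with SWEET12 exports sucrose from phloem parenchyma cells of leaves, had a strong signal. SWEET11 (AT3G48740) read 10.98, 11.26 and 11.02 in wild type and 10.96, 10.95 and 10.99 in actin2-5. The mutant arrays lay within 0.04 of each other, and the wild-type mean was raised by replicate 2. The change was -0.12 ± 0.09 (limma adjusted p = 0.612), and its 95% interval of -0.33 to 0.09 leaves out a fall of the size seen in SAG29.

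SWEET14, a further gibberellin-transporting member of the clade, was dim. SWEET14 (AT4G25010) read 4.54, 4.28 and 4.30 in wild type and 4.17, 4.2 and 4.49 in actin2-5. These values lay near or under the lower quartiles of the arrays (4.50 to 4.58). The groups overlapped, with a change of -0.09 ± 0.11 (95% interval -0.34 to 0.16; limma adjusted p = 0.781). Values this low are compressed by RMA, so a change in SWEET14 may be understated.

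Of the vacuolar members, SWEET2 is expressed in root epidermis, where it limits the loss of sugar to the soil. SWEET2 (AT3G14770) read 8.69, 8.20 and 8.35 in wild type and 8.15, 7.71 and 7.78 in actin2-5. The groups were separated by only 0.05, since actin2-5 replicate 1 nearly reached the lowest wild-type array. The change was -0.53 ± 0.15, with a 95% interval of -0.86 to -0.21 (limma adjusted p = 0.0885). Settings that called it included array weights (-0.61, limma adjusted p = 0.0287) and leaving out actin2-5 replicate 1 (-0.67, limma adjusted p = 0.046). Of the 2 genes listed here as root markers, NAI2, a gene of endoplasmic reticulum bodies, was at -0.27 ± 0.11 (limma adjusted p = 0.255). The other, PYK10, the glucosidase of these bodies, was at 0.09 ± 0.08 (limma adjusted p = 0.644). Their part in the SWEET2 value was not tested.

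SWEET16 and SWEET17 are vacuolar carriers, SWEET17 mainly of fructose. SWEET16 (AT3G16690) read 7.30, 6.79 and 7.20 in wild type and 7.22, 6.97 and 7.10 in actin2-5. The mutant arrays lay inside the wild-type range, and both means were 7.10, with a 95% interval of the change from -0.29 to 0.29. SWEET17 (AT4G15920) read 9.22, 8.97 and 8.82 in wild type and 8.90, 8.79 and 8.77 in actin2-5. The groups overlapped, with a change of -0.18 ± 0.11 (95% interval -0.42 to 0.06; limma adjusted p = 0.479).

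SWEET4 supplies hexoses around the veins. SWEET4 (AT3G28007) read 5.03, 4.57 and 4.72 in wild type and 4.79, 4.61 and 4.69 in actin2-5, so that the mutant lay inside the wild-type range. The change was -0.08 ± 0.12 (95% interval -0.34 to 0.19; limma adjusted p = 0.824), and its sign rested on wild-type replicate 1, without which it was 0.05.

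Whether SAG29 fell by more than the other SWEET genes was examined by subtracting, on each array, the mean of the other 8 from SAG29. This difference was -0.19, -0.26 and 0.06 on wild-type arrays and -1.19, -1.02 and -1.34 on actin2-5 arrays. The genotypes did not overlap, and the difference changed by -1.05 ± 0.13 (SE). A two-sided exact permutation test over the 3 and 3 arrays gave p = 0.1, the smallest value that this design allows, and SAG29 was set against the others with its fall already known. Against single members, SAG29 changed by between 0.73 (SWEET13) and 1.27 (SWEET16) log2 units more. The differences to all 8 members were separated by genotype. However, SAG29 alone had a gap of 1.02 between the genotypes, and of the 8 only SWEET13 (1.11) spanned more than that over the 6 arrays. The separation, also that against the mean, thus largely follows from the SAG29 gap and adds no support to its call.

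**Figure D2:**
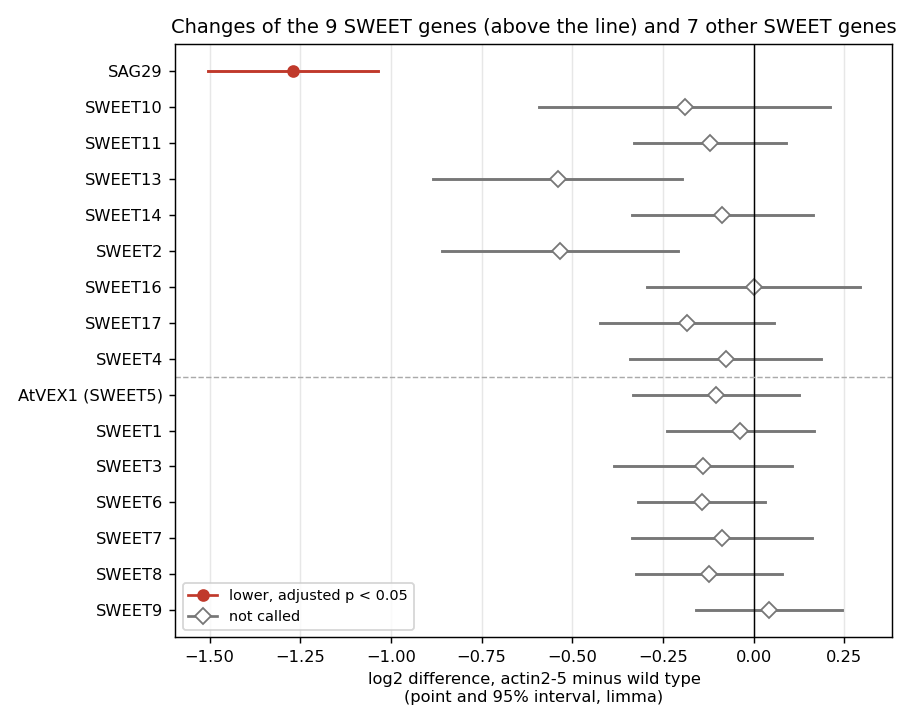
Log2 difference, actin2-5 minus wild type (horizontal axis), with its 95% interval from limma for the 9 SWEET genes above the dashed line and for the other 7 SWEET genes below it. SAG29 at -1.27 is the only called gene of these, and the intervals of SWEET13 and SWEET2 leave out 0 although neither was called after adjustment.

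The other 7 SWEET genes of Arabidopsis all had a probe set. Of these, 0 were called by limma and 0 had an unadjusted p under 0.05, against 3.3% and 15.3% of all probe sets. The changes of the 7 genes lay between -0.14 and 0.04, with a median of -0.10. The 4 with the smallest p were SWEET6 (-0.14), SWEET8 (-0.12), SWEET3 (-0.14) and AtVEX1 (-0.10). SWEET1, a glucose carrier singled out for its clear signal after its values were seen, read 8.65, 8.47 and 8.50 in wild type and 8.44, 8.62 and 8.45 in actin2-5. The genotypes overlapped, and its change was -0.04 ± 0.09 (limma adjusted p = 0.9). The remaining 6, among them the nectary sucrose carrier SWEET9, the pollen genes SWEET8 and AtVEX1 (SWEET5), SWEET3, SWEET6 and SWEET7, had means under 4.50 in both genotypes. At such signals a missing call says little about a change.

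The single-gene probe sets nearest to SAG29 were sought by centring every gene on its own mean and taking the root mean square distance between the 6 centred values. Over the 13285 other genes the median distance was 0.637. AT3G28270 was nearest, at 0.143, followed by AT5G04120 (0.169), AT4G33730 (0.17), AT2G15020 (0.205) and AT3G05900 (0.224). AT3G28270 read 7.53, 7.78 and 8.04 in wild type and 6.40, 6.72 and 6.45 in actin2-5, a change of -1.26 ± 0.13 (limma adjusted p = 0.000735). The other 4 changed by -1.33, -1.12, -1.13 and -0.85, and each of the 5 was called. This measure favours genes that fell by about as much as SAG29, so their calls are no further result. None of the 5 was another SWEET gene. The largest fall of another measured SWEET gene was -0.54 (SWEET13), too small to be near SAG29 by this measure.

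**Figure D3:**
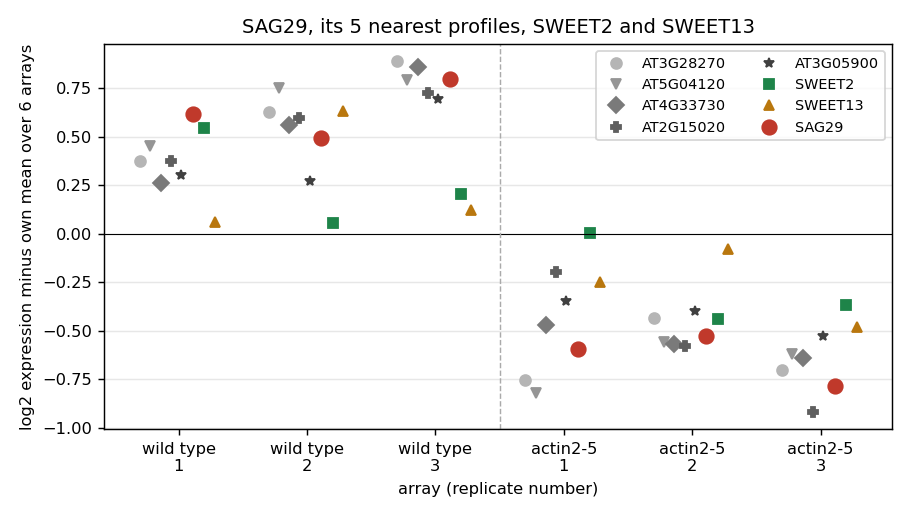
Log2 expression minus each gene's own mean over the 6 arrays (vertical axis), by array, for SAG29, the 5 nearest genes, SWEET2 and SWEET13. SAG29 and the 5 nearest genes lie above 0 on all wild-type arrays and below 0 on all actin2-5 arrays, while SWEET2 and SWEET13 have smaller changes, of -0.53 and -0.54.

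Other genes that move or convert sugars were taken from lists of carriers and enzymes. Sucrose-proton symporters and sugar starvation genes were not analysed here. Of 15 listed monosaccharide-proton symporters 4 were measured, and AT5G61520 rose while the other 3 were not called. AT5G61520 read 6.10, 6.05 and 6.23 in wild type and 7.08, 6.82 and 6.76 in actin2-5. All mutant arrays lay above all wild-type arrays, with a rise of 0.76 ± 0.10, or 1.69-fold (limma adjusted p = 0.00303). The other 3, AT3G19940, AT1G34580 and AT5G26250, lay between -0.03 and 0.03 at means under 4.50. Over the 4 genes the median was 0.0017.

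Of 11 listed carriers of the vacuole and plastid 6 were measured. Of these, 0 were called by limma and 0 had an unadjusted p under 0.05, against 3.3% and 15.3% of all probe sets. The changes of the 6 carriers ran from -0.12 in AT5G17010 to 0.12 in TMT2. SFP2 was at -0.09 and SFP1 at -0.06, and the median was -0.06. TMT2 belongs to a family of carriers that load sugar into the vacuole. Of 12 listed invertases and inhibitors 2 were measured and 0 called, again with 0 at an unadjusted p under 0.05. AT1G62660 was at -0.11 and cwINV6 at 0.11, with a median of 0.

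Of 12 listed genes of sucrose synthesis and cleavage 2 were measured, and ATSPS4F, a sucrose phosphate synthase, fell. ATSPS4F read 8.84, 8.74 and 8.86 in wild type and 8.35, 8.33 and 8.19 in actin2-5. The groups did not overlap, and the change was -0.52 ± 0.09, or 1.44-fold lower (limma adjusted p = 0.00816). AT2G35840, listed as a sucrose phosphatase, was at -0.18 ± 0.11 (limma adjusted p = 0.487), and the median of the pair was -0.35. The ATSPS4F call was lost without actin2-5 replicate 3 (-0.47, limma adjusted p = 0.0587) and with the 25S covariate (-0.515, limma adjusted p = 0.0851).

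SAG29 takes its name from leaf senescence, and 3 of 14 listed senescence-associated genes were measured. WRKY53 and SAG101 rose and WRKY6 was not called, so the 2 called genes went the other way from SAG29. Over all probe sets 2.18% were called higher, and 18.0% of all genes did not overlap, in either direction. A link of these genes to the SAG29 value was not tested. WRKY53, a transcription factor that promotes leaf senescence, read 5.61, 6.56 and 6.37 in wild type and 7.25, 7.36 and 7.86 in actin2-5. All mutant arrays were higher, with a rise of 1.31 ± 0.23 (limma adjusted p = 0.012). SAG101, which encodes a lipase-like protein of senescence and immunity, read 4.39, 4.52 and 4.70 in wild type and 5.03, 5.27 and 5.24 in actin2-5. It rose by 0.64 ± 0.11, also without overlap (limma adjusted p = 0.00843). The wild-type values of SAG101 were weak, near the lower quartiles of the arrays (4.50 to 4.58). WRKY6, a transcription factor of senescence and defence, was at 0.21 ± 0.08 (limma adjusted p = 0.227), and the median of the 3 was 0.64. The WRKY53 call was lost without actin2-5 replicate 2 (1.375, limma adjusted p = 0.052), without replicate 3 (1.125, limma adjusted p = 0.0612) and with the 25S covariate (1.298, limma adjusted p = 0.0978). The SAG101 call was lost without actin2-5 replicate 2 (0.60, limma adjusted p = 0.0638) or 3 (0.61, limma adjusted p = 0.0576).

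SAG29 is also known to respond to osmotic stress and abscisic acid, and 4 of 12 listed genes of that response were measured. LTI30, a dehydrin, read 9.20, 9.15 and 9.24 in wild type and 9.62, 9.62 and 9.59 in actin2-5. It rose by 0.41 ± 0.08 without overlap (limma adjusted p = 0.017). The chloroplast protective protein genes COR15A and COR15B were at -0.32 ± 0.10 and -0.29 ± 0.09, and the dehydrin gene COR47 at -0.05 ± 0.15, none of them called (limma adjusted p = 0.144, 0.158 and 0.92). COR15A and COR15B also did not overlap, both lower in actin2-5. Thus 3 of the 4 genes did not overlap, against 18.0% of all genes in either direction, and 2.18% of all probe sets were called higher. COR15A was weak, with means of 4.46 in actin2-5 and 4.78 in wild type, near the lower quartiles of the arrays (4.50 to 4.58). The list thus held values in both directions, with a median of -0.17. COR15A was called without wild-type replicate 1 (-0.41, limma adjusted p = 0.045). The LTI30 call was lost without actin2-5 replicate 1, 2 or 3, at changes of 0.41, 0.41 and 0.42 (limma adjusted p = 0.0581, 0.103 and 0.0855), and with the 25S covariate, at 0.42 (limma adjusted p = 0.129).

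**Figure D4:**
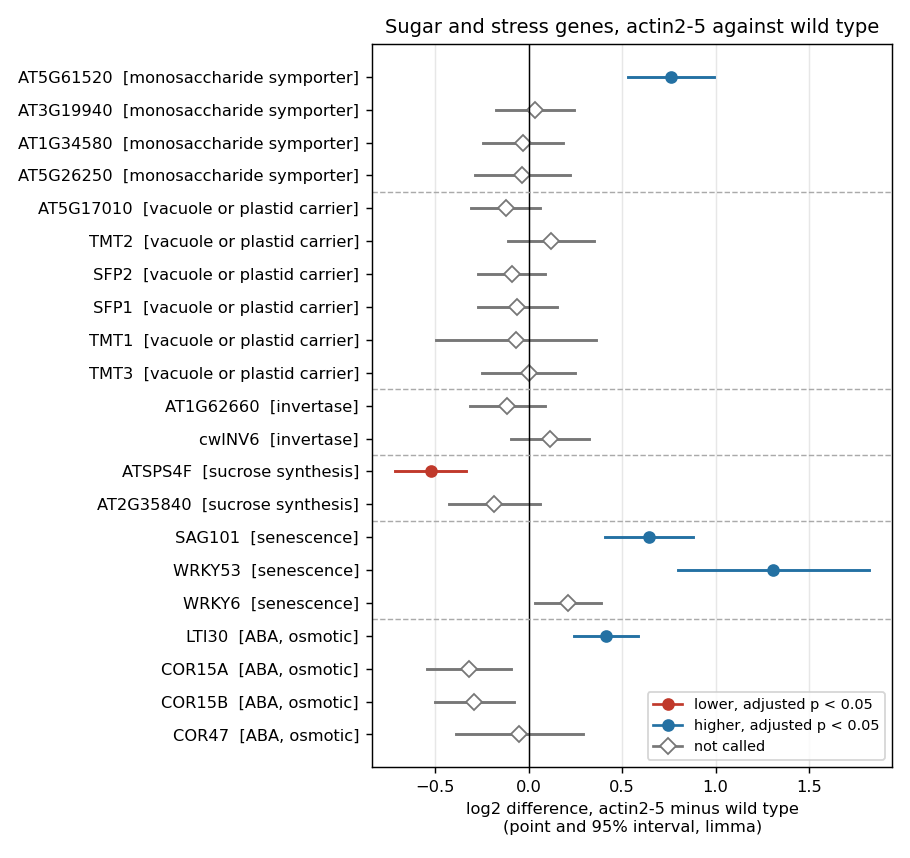
Log2 difference, actin2-5 minus wild type (horizontal axis), with its 95% interval from limma for the measured genes of the sugar, senescence and osmotic stress lists, separated by dashed lines. Filled points are called: AT5G61520, SAG101, WRKY53 and LTI30 are higher and ATSPS4F is lower in actin2-5, and open diamonds are not called.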

How the data were processed

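The deposited log2 expression values come from RMA in affy, per the submitters' processing notes. Version and chip definition were not given in the sources used here. RMA equalises arrays and compresses weak signals. Of 22810 probe sets, the 64 AFFX controls were left out and 22746 tested. Single-gene annotation was taken from the platform table, which lists 1 gene for 13513, several for 503 and none for 8730. Symbols came from RefSeq's TAIR10.1 table (13436 found), used for names and gene order only. A gene with several probe sets was represented by the brightest.

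The genotypes were compared by a two-sided moderated test (limma 3.58.1, R 4.3.3). On 10 simulated data sets of 22746 probe sets it recovered 59.4% of 1.5-fold and 89.6% of 2-fold changes, with 4.17% of calls false, under independent noise. Figures were drawn with matplotlib 3.10.9. The 3 arrays per group limit the precision. At most 3.51% of the values of any 2 arrays were equal.

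The SWEET genes and all lists were chosen with earlier results of these data known. Named genes are all measured SWEET genes, the called members and up to 4 smallest p of each list, and the 5 nearest profiles to SAG29, with SWEET1 added after its values were seen. Alternatives were repeated quantile normalization, median centring, array weights, a trended and robust prior, a filter on dim probe sets, a block for the replicate number, leaving out each array, the controls kept in, and 2 settings for the 25S control signal. Same-numbered arrays of the 2 genotypes correlated in their deviations at 0.062, 0.087 and 0.083, under the 0.1 needed for pairing.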

Additional observations from a re-analysis of the deposited data

Results flagged for a closer look

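Among the control probe sets outside the comparison, that for U12639 was higher in actin2-5, at 8.05 ± 0.23 against 4.42 ± 0.06 (SD, n = 3 each). The log2 difference was 3.63 with the controls kept in the fit (limma adjusted p = 3.45e-07). It is annotated to no sugar transporter gene here.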

How the results depend on the processing

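SAG29 kept its call and direction in all 14 alternatives that tested it, between -1.34 and -1.16. The filter on dim probe sets left SAG29 out, together with SWEET4, SWEET10, SWEET13 and SWEET14, so 0 of the 4 remaining SWEET genes were called by limma there (1 at an unadjusted p under 0.05). Array weights called 2 SWEET genes, SAG29 and SWEET2. With the replicate block 3 were called, SAG29 at -1.27 (adjusted p = 0.000214), SWEET2 (adjusted p = 0.00756) and SWEET13 (adjusted p = 0.0164), and 907 probe sets. The numbers do not pair the arrays by the check used, though each same-number correlation was above those of other numbers (at most -0.011), a hint from the data and not the design. With 1 array left out, called SWEET genes numbered 1 to 2, probe sets 290 to 896 and genes of the other lists 1 to 6, against 750 probe sets and 5 of 34 list genes with all arrays. Probe sets numbered 283 with the 25S covariate and 103 without actin2-5 arrays 1 and 3, which have fewer residual degrees of freedom or arrays. List genes then numbered 2, AT5G61520 and SAG101, and 0 (limma; 5 at an unadjusted p under 0.05 in the latter), and that fit assumes its lone actin2-5 array to vary like wild type. Without 1 array SWEET4 lay between -0.178 and 0.0517, positive without wild-type replicate 1. SAG29 minus the other members ranged from -1.18 (their median in place of the mean) to -0.96. The causes of these differences between settings, the lower counts with the 25S settings among them, were not tested. Signals near the lower quartile limit what SWEET4, SWEET14 and the dim genes can show.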

Other observations

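The replicate numbers held a pattern among the SWEET genes that was noticed after their values were seen. In SWEET2, SWEET4, SWEET16 and SWEET17 replicate 1 read highest of the 3 arrays in both genotypes, which is 4 of the 9 genes against 10.4% of all 13286 genes. In none of SAG29, SWEET10, SWEET11, SWEET13 and SWEET14 was replicate 1 highest in both. SWEET10 was highest in replicate 3 and SWEET13 in replicate 2 of both genotypes. The labels do not say what the replicate numbers share, and the pattern was not tested.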
